A study of Mus musculus with 27 samples.

Results

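The genes described here encode 10 apolipoproteins, the protein parts of the lipoprotein particles that carry cholesterol and triglyceride in blood: Apoa1, Apoa2, Apoa4, Apoa5, Apob, Apoc1, Apoc3, Apoe, Apoh and Apom. They are 10 of 21627 protein-coding genes on chromosomes 1 to 19 and X in the gene table used. They were chosen by name, as liver genes whose promoters hold few CpGs. A position belonged to a gene when it lay within the gene's GRCm38 span or 5 kb on either side and was listed in at least 2 of the 3 samples of every strain. Of 770 positions listed in any sample within these spans, 338 met that rule and 306 were listed in all 27 samples.

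The study measured DNA methylation by reduced representation bisulfite sequencing (RRBS) in liver hepatocytes of female mice aged 12 weeks. RRBS cuts genomic DNA with MspI, which cleaves CCGG, and reads the fragments after bisulfite has converted unmethylated cytosines. There were 9 inbred strains with 3 biological replicates each: the laboratory strains A/J, 129S1/SvImJ, NOD/ShiLtJ, C57BL/6J, NZO/HlLtJ and DBA/2J, and the strains WSB/EiJ, CAST/EiJ and PWK/PhJ, which descend from wild mice. The labels name no treatment, and no strain is a control. Each file listed between 2904787 and 3156965 positions with a percent methylation and no read count, so the depth behind a value is unknown. The C57BL/6J files name the mitochondrial chromosome M and the other 24 files name it MT, so a difference in processing cannot be told apart from a difference of C57BL/6J from the other strains. As a check of the hepatocyte label, mean methylation was 6.56% in the body of Ahsg and 5.34% in the body of Serpinc1, both genes of secreted liver proteins. It was 92.2% near the ends of the B cell gene Cd79b and 90.4% near the end of the Kupffer cell gene Clec4f, but levels did not follow cell type throughout: the flank of the hepatocyte gene Alb was at 95.4%. Medians over all protein-coding genes were 83.2% in bodies, 3.31% near either end where the strand was unknown, 85.5% near the end opposite a start and 64.5% in flanks. The Clec4f value is near the median of its kind of region and does not bear on the label. The starts of Kdr (endothelial cells), Lrat, Reln and Des (stellate cells) and Epcam (cholangiocytes) were at 3.13, 5.93, 0.628, 13.6 and 11.4%, and the ends of Krt19 and Sox9 (cholangiocytes) at 24.5 and 1.02%.

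Apolipoproteins give a lipoprotein particle its structure and decide which enzymes and receptors act on it. Apob is the large scaffold of very low density lipoprotein and Apoa1 that of high density lipoprotein, while Apoe is a ligand of the low density lipoprotein receptor. Hepatocytes transcribe most of these genes at high levels. In mammals, promoters rich in CpGs are usually unmethylated whatever the activity of the gene, and methylation of CpG-poor promoters varies more between tissues. Expression was not measured in the files used here.

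The RefSeq promoter windows (GRCm38.p6, 250 bases before to 50 after a start) show how little sequence RRBS could read at these genes. The table held 12 starts for 8 of the 10 genes and none for Apoc1 and Apoc3. The windows below are of Apoe and Apob, the only genes here with positions meeting the rule inside a window, of Apoa4, whose methylation differed between strains just downstream, and of Apoa1 and Apoh, where no position met the rule within 1 kb of the start. Capitals mark CpGs.
Apoe, chr7:19698349-19698648, minus strand: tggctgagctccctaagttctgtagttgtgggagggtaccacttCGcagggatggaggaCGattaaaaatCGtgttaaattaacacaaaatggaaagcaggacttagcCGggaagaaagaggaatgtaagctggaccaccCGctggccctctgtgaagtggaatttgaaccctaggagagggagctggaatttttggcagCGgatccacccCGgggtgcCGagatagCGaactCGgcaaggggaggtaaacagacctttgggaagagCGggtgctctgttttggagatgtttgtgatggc
Apob, chr12:7977427-7977726, plus strand: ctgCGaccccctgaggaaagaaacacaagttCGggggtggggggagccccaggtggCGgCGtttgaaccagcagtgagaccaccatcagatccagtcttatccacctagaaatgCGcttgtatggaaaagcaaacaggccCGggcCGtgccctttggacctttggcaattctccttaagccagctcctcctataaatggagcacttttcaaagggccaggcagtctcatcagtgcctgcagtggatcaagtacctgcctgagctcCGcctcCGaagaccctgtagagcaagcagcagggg
Apoa4, chr9:46240594-46240893, plus strand: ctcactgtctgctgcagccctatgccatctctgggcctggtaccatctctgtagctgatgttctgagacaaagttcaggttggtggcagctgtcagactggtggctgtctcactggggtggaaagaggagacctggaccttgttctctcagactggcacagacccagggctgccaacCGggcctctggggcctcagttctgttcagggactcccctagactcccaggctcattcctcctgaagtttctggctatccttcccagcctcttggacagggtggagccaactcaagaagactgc
Apoa1, chr9:46228380-46228679, plus strand: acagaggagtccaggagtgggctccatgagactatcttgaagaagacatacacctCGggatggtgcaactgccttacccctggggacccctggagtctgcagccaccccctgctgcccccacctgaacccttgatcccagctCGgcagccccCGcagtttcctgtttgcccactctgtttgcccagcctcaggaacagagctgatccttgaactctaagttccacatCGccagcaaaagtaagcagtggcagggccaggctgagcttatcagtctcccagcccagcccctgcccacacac
Apoh, chr11:108395047-108395346, plus strand: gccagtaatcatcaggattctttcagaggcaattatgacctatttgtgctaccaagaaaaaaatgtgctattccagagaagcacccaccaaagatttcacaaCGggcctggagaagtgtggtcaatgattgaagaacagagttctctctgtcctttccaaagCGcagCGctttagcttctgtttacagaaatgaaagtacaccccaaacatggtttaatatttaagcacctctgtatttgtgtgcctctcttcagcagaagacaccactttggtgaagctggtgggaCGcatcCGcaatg

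The 12 windows held between 1 and 12 CpGs, with a median of 4.5, against a median of 13 over 21262 windows of protein-coding genes. Apoa4 had 1 CpG, a number that 11.4% of all windows did not exceed, Apob had 9 and the Apoe window shown had 11. The ratio of observed to expected CpGs was below 0.48 in 10 of the 12 windows and in 44.3% of all windows, and above 0.75 in 0 of the 12 and in 33.6% of all. The other 2 windows were both of Apoe. The MspI site CCGG, which reads the same on both strands, occurred in 5 of the 12 windows and in 62.2% of all windows. Of the windows shown, Apoe held 2 such sites, Apob and Apoa4 1 each, and Apoa1 and Apoh 0. The histogram of CpGs per window places every apolipoprotein start to the left of the overall median. The genes were chosen as having promoters with few CpGs, so this comparison describes the choice. The windows of Apoa5, and some of those of Apoe, overlap each other.

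**Figure D1:**
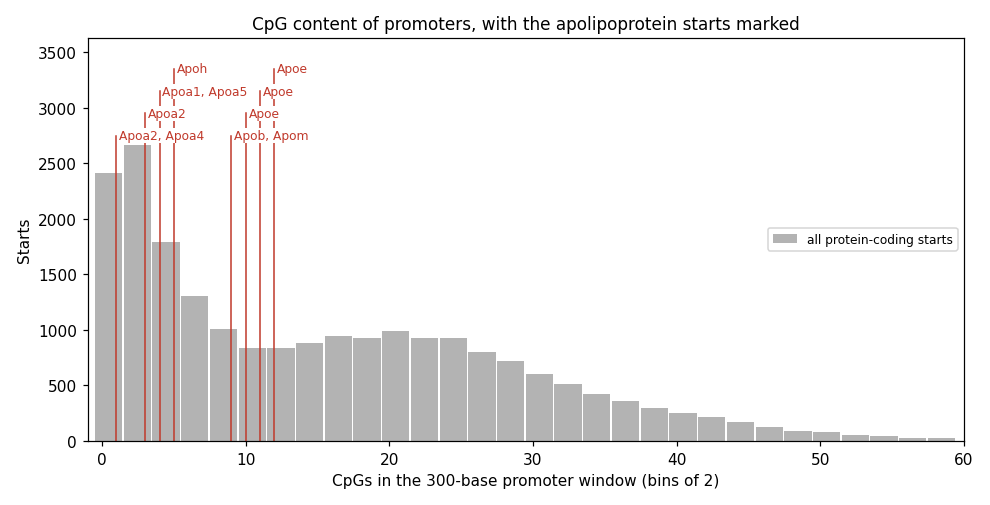
Number of CpGs in 300-base promoter windows (x axis, bins of 2, the last bin holding 58 or more) against the number of protein-coding starts (y axis), with red lines at the apolipoprotein starts. The 12 apolipoprotein starts lie between 1 and 12 CpGs, below the overall median of 13.

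Most positions around the 10 genes carried little methylation, and the low ones often belonged to a neighbouring gene's end. Mean methylation over all samples was below 2.5% at 64.2% of the 338 positions, against 52.1% of the 1951655 positions of the whole data set that met the same rule. The median of the position means was 0.826% here and 2.08% over the whole data set. All 55 positions of Apoa5 lay within 299 bp of the end of Zpr1, a zinc finger protein gene, with means between 0 and 2.26%. Of the 129 positions around Apom, 54 lay inside Bag6, which encodes a chaperone, and 30 just before it, all with means between 0 and 2.60%. Across Apoa1 and Apoc3 8 positions were shared, and 4 across Apoc1 and Apoe.

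By region, the mean over the 78 positions within 1 kb of a start, in 5 genes, was 7.81% ± 1.85 (SD over 27 samples). Within 1 kb of the other end it was 73.0% ± 7.12 over 8 positions. In the rest of the gene bodies it was 17.0% ± 2.71 over 11 positions, and in the flanks 22.1% ± 1.08 over 241. The start value is set largely by Apoa4: over the other 70 start positions the mean was 3.13% ± 1.46 (SD over 27 samples). The medians over all protein-coding genes with at least 3 positions were 1.08% near starts, 85.5% near other ends, 83.2% in bodies and 64.5% in flanks. These are medians of region means, 1 per gene, whereas the levels above pool positions. By gene, start region means were 0.789% in Apoe (32 positions), 0.806% in Apoa2 (23), 11.3% in Apob (10), 12.5% in Apom (5) and 49.3% in Apoa4 (8). The body value rests on few positions, 7 of them in Apoa2 beside the end of its neighbour Tomm40l, and it moved to 87.9% over 2 positions when the windows at gene ends were widened to 2000 bp and to 9.10% when they were narrowed to 500 bp. The value near other ends likewise depends on the window: with 2000 bp it was 17.4% over 83 positions.

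**Figure D2:**
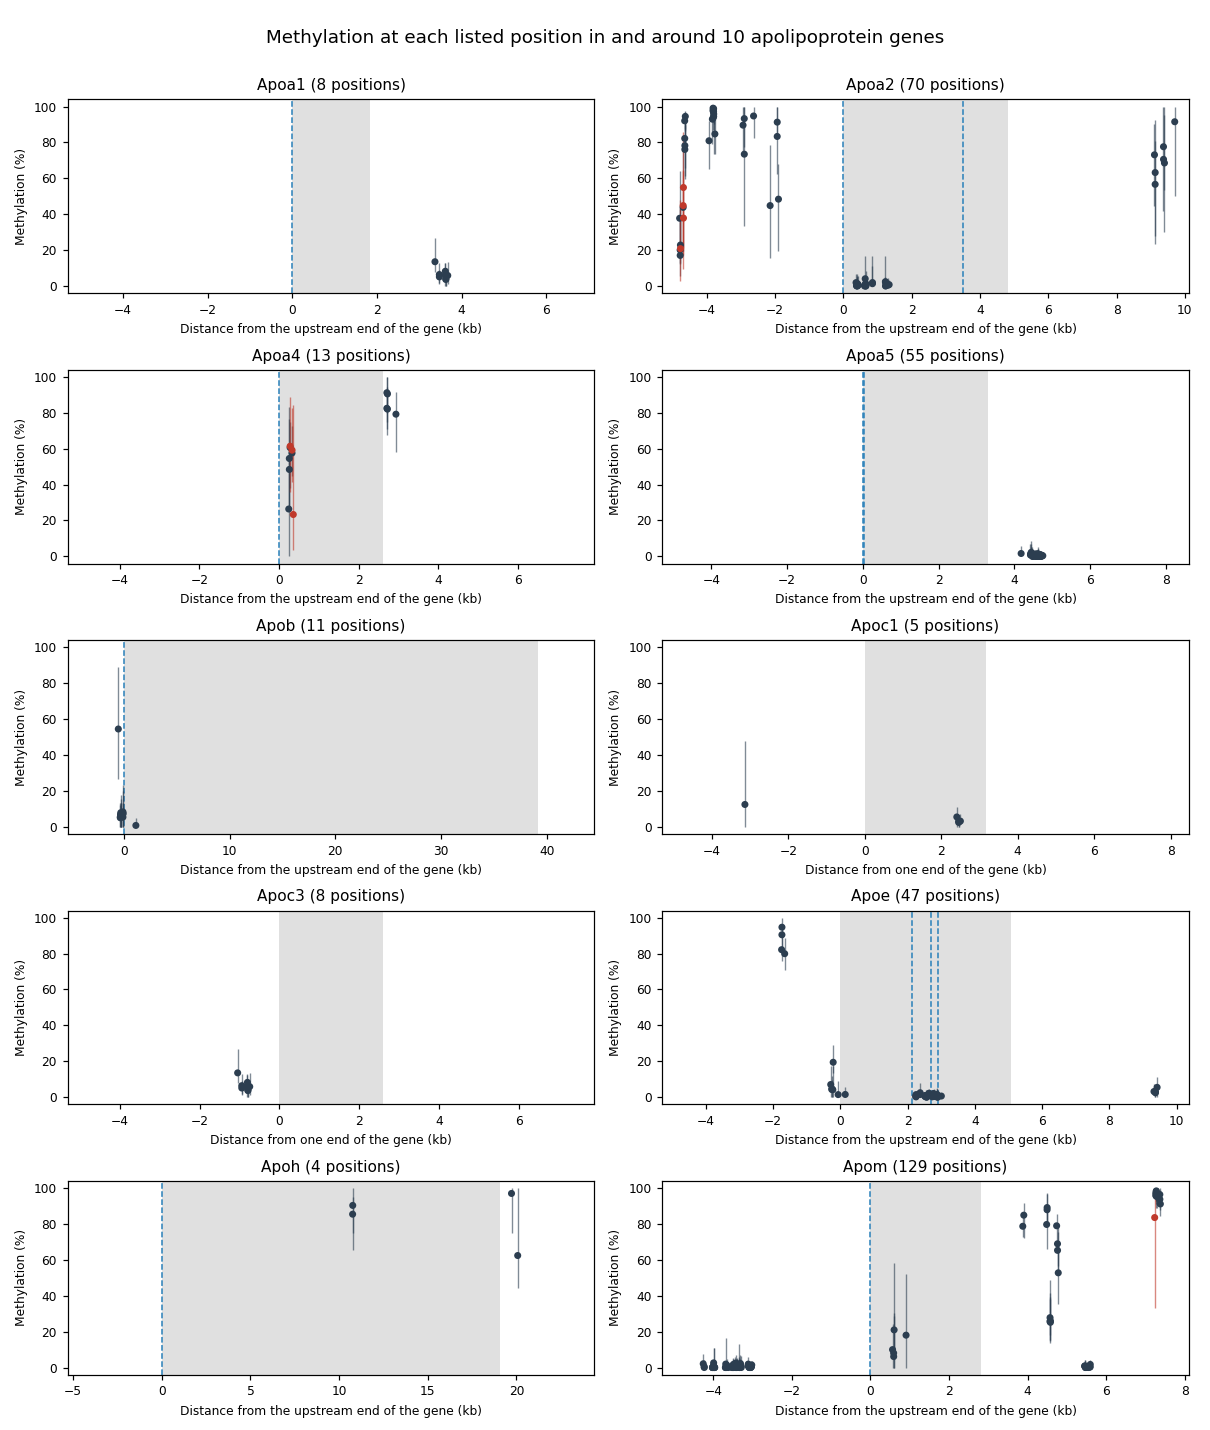
Mean methylation over 27 samples (points, y axis in %) at each position meeting the rule, by distance along the gene (x axis, kb, grey the gene's span), with vertical lines from the lowest to the highest strain mean. Dashed lines are RefSeq starts and red marks the 8 called positions, 4 upstream of Apoa2, 3 in Apoa4 and 1 beside Apom.

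Apoe was unmethylated at the positions read near its starts in every strain. Its 32 positions between chr7:19698307 and chr7:19699073 lie inside the gene's span around 3 RefSeq starts, with the nearest position 16 bp from a start. All 32 lie downstream of the most upstream start (chr7:19699188), the nearest at 115 bp. The window of that start held 10 CpGs and no position meeting the rule, so the sequence before it was not read. Position means ran from 0 to 2.46%, and the region mean was 0.789%. Strain means ran from 0.514% in WSB/EiJ to 1.45% in A/J, and no sample exceeded 1.61%. The difference between strains did not pass the test (adjusted p = 0.264, moderated F test of limma with Benjamini-Hochberg adjustment over 40657 gene regions). None of the 32 positions had a mean of at least 2.5%, the minimum for a test of single positions. Upstream, inside Tomm40, a gene of the mitochondrial import pore, 10 positions ran from 1.41 to 94.7%.

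Apob was low next to its start and higher farther upstream. Of its 10 positions near the start, the 9 between -384 and -109 bp had means from 5.00 to 8.29%, and the position at -572 bp (chr12:7977105) had a mean of 54.5%. Over all 10, the samples of NOD/ShiLtJ were at 2.5, 2.5 and 4.00% and those of PWK/PhJ at 17.3, 23.2 and 24.5%. These 2 strains did not overlap, and PWK/PhJ overlapped with CAST/EiJ, the next in order, whose samples were at 6.00, 19.2 and 21.2%. The range of 18.7 points between strain means fell just short of the threshold (adjusted p = 0.0521, limma, Benjamini-Hochberg), and 9 of 39 alternative analyses called it. Among these were the analyses without C57BL/6J and without 129S1/SvImJ replicate 1 or 2, C57BL/6J replicate 4, CAST/EiJ replicate 1 or NZO/HlLtJ replicate 2. Without the position at -572 bp, the mean was 14.2% ± 2.18 in PWK/PhJ and 0.370% ± 0.642 in NOD/ShiLtJ (SD, n = 3), and that position alone was at 88.9% ± 19.2 and 26.7% ± 2.89. PWK/PhJ was thus highest and NOD/ShiLtJ lowest in both portions. The remaining position of the gene that met the rule, at 1089 bp downstream, had a mean of 0.738%. Positions at -110, -105 and -104 bp missed the rule, being listed in 9 to 13 samples, and were at 0%. Those at -769 to -571 bp, listed in 3 PWK/PhJ samples only, had means of 93.9 to 100%. The others that missed it within 1 kb, listed in 1 to 9 samples, had means of 0 to 11.1%.

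Apom, which carries sphingosine-1-phosphate on high density lipoprotein, had 5 positions inside the gene between 562 and 906 bp from its start. Their means ran from 6.10 to 21.0%, and the region mean was 12.5%. Positions at -98 and -120 bp missed the rule, being listed in 11 samples each, and had means of 0 and 9.09%. The others that missed it within 1 kb, listed in 1 to 11 samples, had means of 0 to 100%. CAST/EiJ samples were at 23.0, 28.3 and 39.7%, DBA/2J samples at 6.67, 25 and 36.7%, and NOD/ShiLtJ samples at 0, 6.67 and 6.67%. Replicates of one strain could lie far apart, as in PWK/PhJ with 0, 2.5 and 30.7%, and the strain difference did not pass the test (adjusted p = 0.306, limma, Benjamini-Hochberg).

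At Apoa2, which encodes a major protein of high density lipoprotein, the low positions sit in an overlap. RefSeq gives the gene 2 starts, at chr1:171221564 and chr1:171225054. The 23 positions within 1 kb of the first had a mean of 0.806% (0.173% in A/J to 1.31% in WSB/EiJ), and all 23 lie inside the span of Tomm40l, 96 to 577 bp from its end. A further position at -997 bp missed the rule, being listed in 21 samples, and was higher, with a mean of 23.6% (0 to 50%). The others that missed it near this start, 225 to 818 bp downstream and listed in 1 to 9 samples, had means of 0 to 1.28%. The 7 body positions, at least 283 bp beyond that end, had a mean of 0.906%. No position met the rule within 1 kb of the second start. Near it, 3 positions 558 to 638 bp downstream, listed in 17 to 20 samples, had means of 2.15 to 5.14%.

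Apoa1, Apoa5 and Apoh likewise had no position meeting the rule within 1 kb of a start. At Apoa5 a position at -660 bp from the first start, listed in 3 CAST/EiJ samples only, had a mean of 36.1% (25 to 50%). The Apoa1 positions at 91 and 101 bp, each listed in 1 A/J sample, were at 0%. For Apoh, which encodes beta-2-glycoprotein I, 8 positions 57 to 532 bp downstream missed the rule, being listed in 15 to 20 samples. None was listed in CAST/EiJ, and those at 65, 77, 526 and 532 bp were not listed in NOD/ShiLtJ either. Their means ran from 1.00 to 8.33%, and single samples from 0 to 100%. The 4 positions of Apoh that met the rule lay in the body and near the other end, with means of 62.4 to 97.0%, and none was called.

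Between Apoa1 and Apoc3, which lie next to each other on chromosome 9, 8 positions from chr9:46232003 to chr9:46232305 lay 1534 to 1836 bp beyond the end of Apoa1 and 745 to 1047 bp from Apoc3, an inhibitor of triglyceride clearance. Position means ran from 3.63 to 13.5%. PWK/PhJ samples were at 9.69, 11.1 and 12.6%, and NOD/ShiLtJ samples at 3.02, 4.35 and 6.58%. The samples of these 2 strains did not overlap, while those of PWK/PhJ and CAST/EiJ, the next in order, did. The adjusted p was 0.0303 for all 8 positions and 0.0106 for the 7 within 1 kb of Apoc3 (limma, Benjamini-Hochberg), but the strain means spanned 6.49 and 5.75 points, under the minimum of 10 points set for a called region. The 4 positions inside Apoc1 within 1 kb of an end had a mean of 3.51% (2.16% in CAST/EiJ to 6.37% in PWK/PhJ, adjusted p = 0.447).

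Apoa4, an apolipoprotein made in liver and intestine, had the highest level among the start regions read here. Its 8 positions lay 244 to 358 bp downstream of the start (chr9:46241088 to chr9:46241202), inside the gene and with no other gene closer than 5452 bp. The region mean was 49.3%, higher than 92.1% of the 11653 start regions of all genes and higher than 67.3% of the 2317 with a CpG-poor promoter (ratio below 0.48). In that CpG-poor group the median was 14.6%, and Apob and Apom ranked above 46.9 and 48.2% of it. Other positions near the Apoa4 start missed the rule. Those at -73, 243 and 339 bp, listed in 4, 3 and 1 samples, were at 0%. One at 630 bp, listed in 24 samples, had a mean of 41.4%. The position at -73 bp lies in the promoter window and was listed only in CAST/EiJ, PWK/PhJ and WSB/EiJ, so the promoter itself was hardly read.

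Region means at Apoa4 separated PWK/PhJ from every other strain. PWK/PhJ samples were at 70.6, 78.0 and 81.1%. The next strains in order were A/J at 53.1, 62.4 and 63.9%, C57BL/6J at 52.0, 57.5 and 58.9%, and NZO/HlLtJ at 45.5, 47.5 and 54.1%. A/J overlapped with C57BL/6J, and C57BL/6J with NZO/HlLtJ. NOD/ShiLtJ samples were at 41.8, 47.4 and 52.6%, DBA/2J samples at 37.5, 42.1 and 47.0%, and WSB/EiJ samples at 37.5, 39.9 and 43.8%. CAST/EiJ samples were at 33.9, 40.9 and 42.0% and 129S1/SvImJ samples, the lowest strain by mean, at 28.9, 33.4 and 39.1%. Each of the lower 8 strains overlapped with the next one, so the order among neighbours is not resolved. The strain means spanned 42.7 points (adjusted p = 1.12e-06, limma, Benjamini-Hochberg), and the region was called in all 39 alternatives. At the other end of Apoa4, 92 to 320 bp beyond the gene, 5 positions had a mean of 85.1% and a strain range of 13.9 points that did not pass (adjusted p = 0.563). There PWK/PhJ was the lowest strain, at 79.4%.

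Regions in or beside markers of other cell types also differed between strains. The called marker regions were 3 of 6 for leukocytes, 3 of 7 for cholangiocytes, 1 of 7 for stellate cells, 0 of 5 for endothelial and 0 of 3 for Kupffer cells, against 10.2% of all gene regions. For the hepatocyte markers it was 1 of 8, the flank of Apoa2 itself. The calls at the leukocyte genes Cd79b and Itgam and at the stellate cell gene Reln were likewise in flanks, outside the gene. PWK/PhJ was the highest strain in the body of Krt19 (69.2%, against 34.6% in A/J, adjusted p = 0.0026) and the lowest in that of Ptprc, a gene of leukocytes (56.3%, against 73.4% in CAST/EiJ, adjusted p = 0.0415; limma, Benjamini-Hochberg). At the start of Lrat PWK/PhJ was at 11.8% and the other strains at 4.26 to 6.53% (adjusted p = 0.0146), a range under 10 points. At the start of Epcam WSB/EiJ was lowest at 5.59% and CAST/EiJ highest, 10.4 points above it. The part of other cell types in the result at Apoa4 was not tested.

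**Figure D3:**
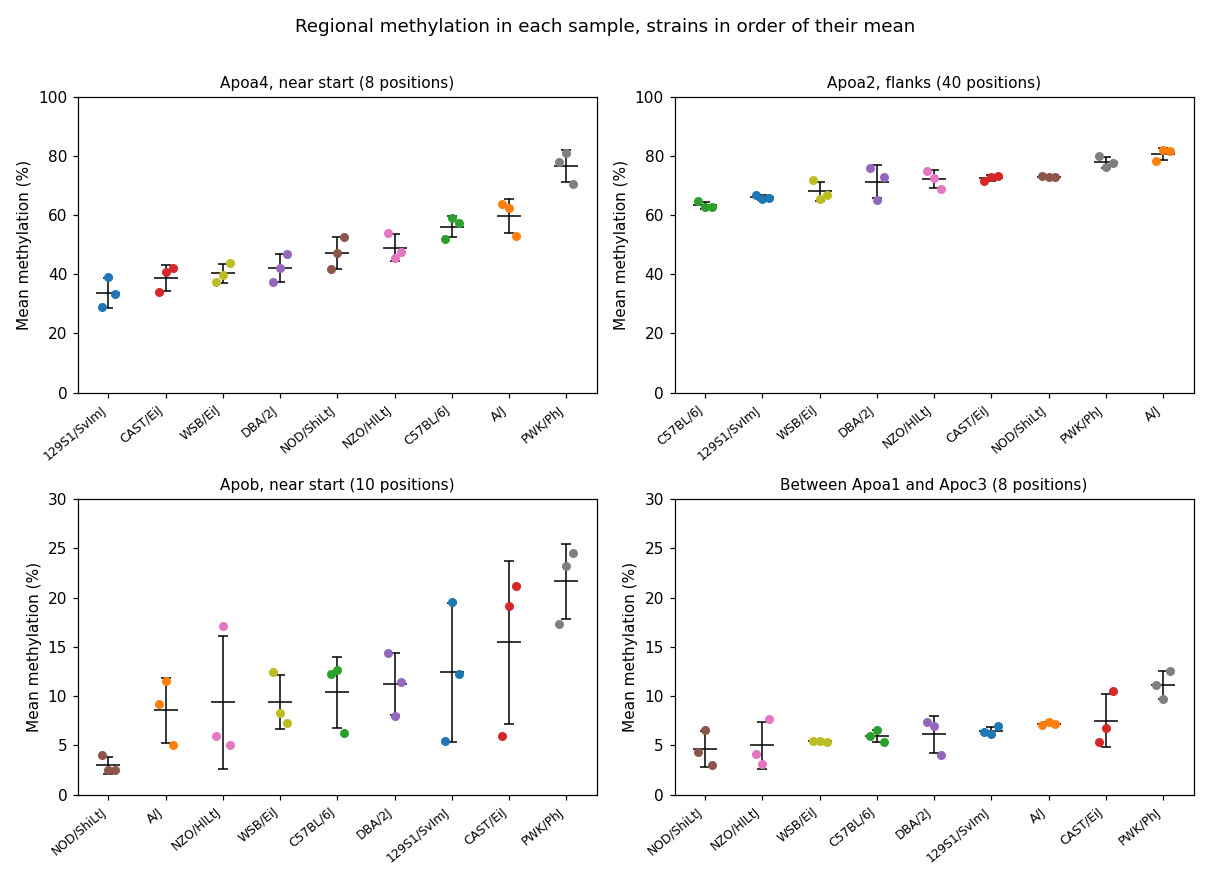
Mean methylation of 4 regions (y axis, %) in each sample (points), with the strain mean and SD over 3 samples in black and strains (x axis) in order of their mean. PWK/PhJ is highest in 3 of the 4 panels, at 76.5% near the Apoa4 start, and C57BL/6J is lowest in the Apoa2 flanks at 63.4%.

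Of the 14 apolipoprotein regions tested, 2 were called, the Apoa4 start and the Apoa2 flanks. Over all gene regions 10.2% were called, over start regions alone 5.09%, and over start regions with a CpG-poor promoter 14.4%. Of the 338 positions, 116 had a mean at least 2.5 points away from both 0 and 100% and were tested singly, and 8 of them were called (adjusted p under 0.05 and strain means at least 25 points apart). That is 6.90% of those tested, against 4.33% of 868537 positions over the whole data set. At an unadjusted p under 0.05 were 28 of the 116, or 24.1%, against 15.4% of all tested positions.

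Within the Apoa4 stretch the largest difference was at the last position, 358 bp downstream of the start (chr9:46241202). PWK/PhJ samples were at 80.0, 82.4 and 90.9%, and no other sample exceeded 40.9%. NZO/HlLtJ was lowest with samples at 0, 0 and 11.1%, and C57BL/6J samples were at 10, 11.1 and 20.8%. PWK/PhJ thus stood clear of all other strains, by 80.7 points from the lowest (adjusted p = 4.28e-06, limma, Benjamini-Hochberg). The neighbouring base, which is the same CpG on the other strand, missed the rule because no WSB/EiJ sample listed it. There PWK/PhJ was at 80.6% (66.7 to 100%, n = 3) and the next strain, A/J, at 35.6%. Without the position at 358 bp, the region still ran from 33.5% in 129S1/SvImJ to 75.2% in PWK/PhJ (adjusted p = 1.64e-05).

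The other called positions of Apoa4 lay 279 and 327 bp downstream. At 279 bp, 129S1/SvImJ samples were at 30, 38.1 and 38.9%, C57BL/6J samples at 80.0, 87.5 and 87.5%, and PWK/PhJ samples at 88.2, 88.2 and 90.0% (range of strain means 53.2 points, adjusted p = 8.98e-04). C57BL/6J was high at this CpG and low at the one at 358 bp. At 327 bp, DBA/2J samples were at 30.8, 36.4 and 57.1% and PWK/PhJ samples at 80.0, 82.4 and 86.4% (adjusted p = 0.0245). The other strands of these 2 CpGs, with means of 60.6 and 57.6%, were not called, and their strain ranges were 36.5 and 27.9 points. On the first of them 129S1/SvImJ was again lowest and PWK/PhJ highest. On the second, that of the CpG at 327 bp, CAST/EiJ was lowest and A/J highest. The call at 327 bp was lost in 4 of 38 alternatives, among them leaving out PWK/PhJ replicate 1 or replicate 3. The calls at 279 and 358 bp kept their side of the threshold wherever they were tested singly. Changes of flank and lower minimum ranges, counted among the alternatives, could not lose a single-position call.

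**Figure D4:**
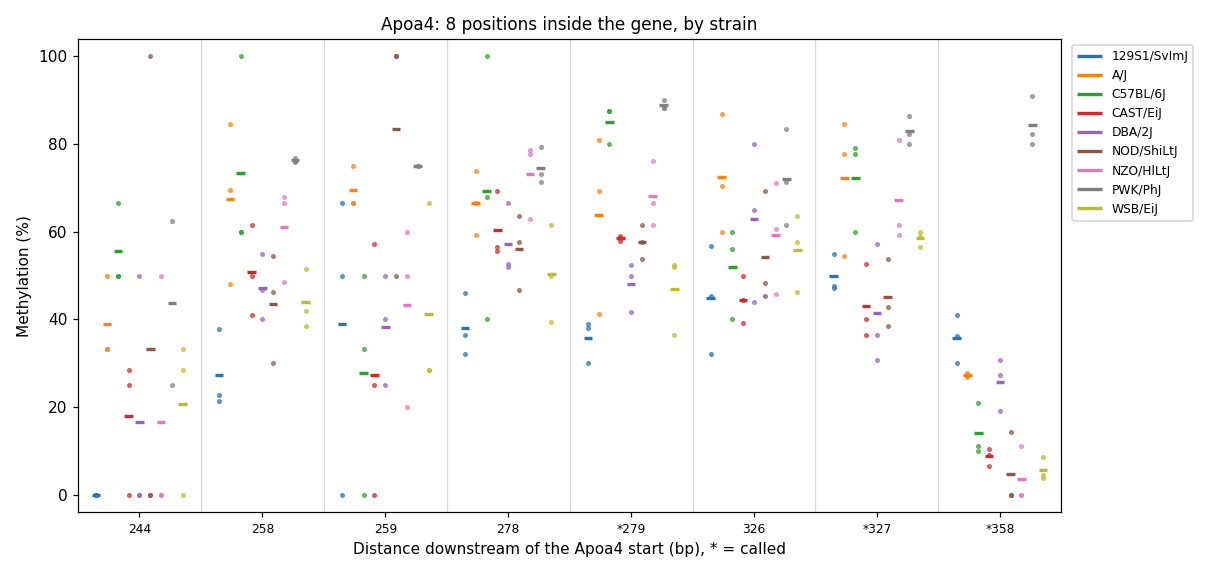
Methylation (y axis, %) of each sample (points) and strain mean (bars) at 8 positions by distance downstream of the Apoa4 start (x axis, bp, not to scale). PWK/PhJ is high at most positions and stands alone at 358 bp, where its samples lie between 80.0 and 90.9%.

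The Apoa2 flanks ran from 63.4% in C57BL/6J to 80.9% in A/J over 40 positions, a range of 17.4 points (adjusted p = 4.85e-05, limma, Benjamini-Hochberg). C57BL/6J samples were at 62.7, 62.8 and 64.7% and A/J samples at 78.5, 81.8 and 82.2%. Over all 40657 gene regions C57BL/6J was the lowest strain in 18.9%, more often than any other, and A/J the highest in 17.5%. The 4 called positions were all in a stretch of 14 positions at -4791 to -4625 bp from the first start (chr1:171216773 to chr1:171216939). They belong to 3 CpGs, since those at -4680 and -4679 bp are the strands of one CpG, and the other strands of the calls at -4687 and -4767 bp were not called. That stretch lies inside Nr1i3, which encodes the nuclear receptor CAR, and 863 to 1029 bp from the end of Tomm40l. It is thus nearer to these genes than to Apoa2.

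Over the 14 positions the level was 37.3% ± 5.39 in C57BL/6J, 41.0% ± 5.08 in 129S1/SvImJ, 64.5% ± 2.60 in A/J and 69.4% ± 7.47 in PWK/PhJ (SD, n = 3). The remaining 5 strains lay between 45.9 and 56.5%. Levels also changed along the stretch, from position means of 17.0% to 94.5%. At -4679 bp (chr1:171216885) C57BL/6J samples were at 4.35, 10 and 14.3%, A/J samples at 61.5, 64.7 and 66.7%, and PWK/PhJ samples at 47.4, 60 and 71.4%. All A/J samples lay above all C57BL/6J samples, with strain means 54.8 points apart (adjusted p = 3.84e-04). At -4687 bp (chr1:171216877) C57BL/6J samples were at 14.3, 17.4 and 20% and A/J samples at 58.8, 66.7 and 69.2% (adjusted p = 5.32e-04). Both positions kept their side of the threshold wherever they were tested singly, including without C57BL/6J. With a flank of 2 kb or none they lie outside the span of Apoa2, and with strands averaged each is merged with the other strand of its CpG.

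The largest range in the stretch, 65.1 points, was at -4680 bp (chr1:171216884). C57BL/6J samples were at 0, 29.4 and 33.3%, A/J samples at 50, 66.7 and 78.9%, and PWK/PhJ samples at 76.9, 87.5 and 93.8%. Replicates spread widely in other strains too, as in 129S1/SvImJ with 33.3, 38.5 and 75%. The remaining strains lay between 33.3% in a CAST/EiJ sample and 81.2% in a DBA/2J sample. All PWK/PhJ samples lay above all C57BL/6J samples (adjusted p = 0.0337, limma, Benjamini-Hochberg). At -4767 bp the range was 45.4 points (adjusted p = 0.0437). The calls at -4767 and -4680 bp were lost in 27 of 38 and 9 of 39 alternatives, including the analysis without C57BL/6J, whose files differ in naming. Leaving out 1 sample at a time kept the first in 4 of 27 analyses and the second in 22 of 27, the losses of the second being without C57BL/6J replicate 1, CAST/EiJ replicate 1 or 5, or PWK/PhJ replicate 1 or 2. Among the 38 and 39 alternatives, changes of flank and lower minimum ranges could not lose a single-position call. The 39 for the call at -4680 bp include the average of both strands of its CpG. The 10 positions closer to the end of Tomm40l had strain levels of 91.0 to 96.5%. On the other side of Apoa2, 7 positions inside Fcer1g, an Fc receptor subunit, ran from 60.8% in DBA/2J to 85.6% in CAST/EiJ, and none was called.

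**Figure D5:**
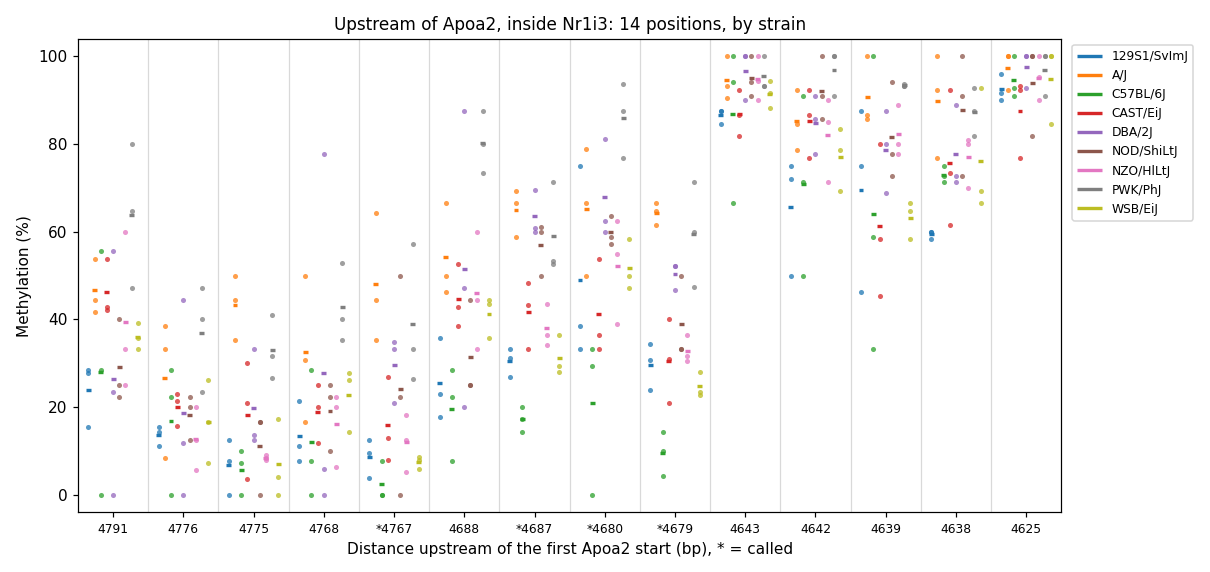
Methylation (y axis, %) of each sample (points) and strain mean (bars) at 14 positions inside Nr1i3, by distance upstream of the first Apoa2 start (x axis, bp, not to scale). In the middle of the stretch C57BL/6J is lowest and A/J or PWK/PhJ highest, and levels rise to 94.5% at the last position.

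The remaining called position lay in the flank of Apom at chr17:35124566, inside Gpank1 and the long non-coding RNA gene Gm20522. DBA/2J samples were at 0, 50 and 50% and CAST/EiJ samples at 57.1, 66.7 and 71.4%. In 129S1/SvImJ, A/J and NOD/ShiLtJ all 9 samples were at 100%, and the strain means spanned 66.7 points (adjusted p = 0.0065). The DBA/2J samples lay below those of every other strain. The Apom flanks as a whole, 124 positions with strain means of 15.3 to 16.6%, differed by 1.37 points between strains (adjusted p = 0.451).

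Strains also differed in which positions they listed. Of the 770 positions, 148 were listed in all 3 samples of at least 1 strain and in no sample of another. That is 19.2%, against 29.4% of the 5240546 positions listed in any sample over the whole data set. Apoa2 had 42 such positions of 140, Apoc1 36 of 82, Apob 18 of 44 and Apoh 16 of 44, whereas Apoe had 5 of 102. In CAST/EiJ 47 of the 148 were absent and in NOD/ShiLtJ 86. Over the whole data set, 707139 of 1538347 such positions were absent in CAST/EiJ and 686258 in NOD/ShiLtJ. Strain genome sequences were not used here, and the part of sequence variants in listing or in the percentages was not tested.

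Other genes of lipoprotein metabolism were mostly low at the starts that were read. Of 29 such genes 28 had a region, and 11 of 12 start regions were under 10%, among them Mttp, which loads lipid onto Apob, at 0.551%, and Apoc2, the activator of lipoprotein lipase, at 3.85%. Lcat, which esterifies cholesterol on high density lipoprotein, was the other one at 28.9%. None of these starts was called. Among genes of abundant secreted liver proteins, 5 of 5 start regions were under 10%, including Fgb at 4.59% and Rbp4 at 0.388%. Of the apolipoprotein starts, Apoa2 and Apoe, 2 of 5, were under 10%, the Apoa2 positions all lying inside the span of Tomm40l. The share was 82.0% over the start regions of all genes but 45.7% over those with a CpG-poor promoter, the class of 4 of the 5 apolipoprotein starts. With the ends of genes of unknown strand counted too, 19 of 23 regions of the lipoprotein list, 6 of 7 of the secreted protein list and 4 of 7 of the apolipoproteins were under 10%. Gpihbp1, at 76.6%, and Plg, at 93.8%, were the highest of the first 2 lists. These differences between lists were not tested.

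Over all regions of the lipoprotein list 6 of 64 were called, or 9.38%, near the 10.2% of all gene regions. The largest range was in the flank of Sar1b, a GTPase of chylomicron export from the endoplasmic reticulum, from 16.6% in C57BL/6J to 98.3% in CAST/EiJ (adjusted p = 3.31e-08, limma, Benjamini-Hochberg). The body of Lsr, a receptor for triglyceride-rich particles, ran from 20% in PWK/PhJ to 49.4% in NOD/ShiLtJ. Called flanks were those of Apon (61.0% in CAST/EiJ to 85.9% in PWK/PhJ), Cideb (10% in WSB/EiJ to 32.8% in DBA/2J) and Tm6sf2 (26.7% in C57BL/6J to 40.3% in A/J). The last 2 encode proteins of very low density lipoprotein lipidation.

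PWK/PhJ had the highest mean over the 78 start positions, 11.2% ± 0.819 (SD, n = 3), and 129S1/SvImJ and NOD/ShiLtJ the lowest at 6.00% ± 2.19 and 6.00% ± 0.217. This order rests on Apoa4: over the other 70 start positions CAST/EiJ was highest at 5.13% ± 0.913, PWK/PhJ followed at 4.36% ± 1.65 and NOD/ShiLtJ was lowest at 1.29% ± 0.380. PWK/PhJ was the highest strain near the Apoa4 and Apob starts, between Apoa1 and Apoc3 and in Apoc1, and CAST/EiJ near the Apom start, while PWK/PhJ was lowest at the other end of Apoa4. Counted over regions, PWK/PhJ was highest in 6 of the 14 apolipoprotein regions, 12 of 33 of the secreted protein list, 17 of 64 of the lipoprotein list and 23.1% of all 40657 gene regions. In each of these sets no other strain was highest more often, and among the 6 regions those of Apoa1 and Apoc3 share positions. At Apoe and at the first start of Apoa2 no strain mean exceeded 1.45%.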

How the data were processed

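DNA methylation was analysed in 27 hepatocyte samples, and the strain label set the groups. The authors deposited 1 list per sample of single positions with a percent methylation from 0 to 100, per the file headers, with no read counts. Per the submitters' processing notes, Trim Galore 0.6.3, Bowtie2, Bismark 0.22 and the build GRCm38 (mm10) were used. A coverage filter is not given in the sources used here, and any filter would set which positions are listed. Counting intervals could not be given. Coordinates were checked against RefSeq promoter sequence (GRCm38.p6): of 277364 C57BL/6J positions in promoter windows, 99.95% fell on a CpG, against 56.4% after a shift of 1 base.

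Strains were compared by the moderated F test of limma on log2((percent + 5)/(100 - percent + 5)), with Benjamini-Hochberg adjustment over all 868537 positions tested, or all 40657 regions of protein-coding genes with at least 3 positions. Positions entered with a mean of 2.5 to 97.5%. Calls required an adjusted p under 0.05 and strain means 25 points apart (positions) or 10 (regions). The computation used Python 3.11.15 (pandas 2.3.3, scipy 1.17.1, numpy 2.4.6, matplotlib 3.10.9). It was tested on simulated data and checked against R 4.3.3 with limma 3.58.1, which put 0 of 704331 positions on the other side of the threshold. Positions within 1 kb of a RefSeq start or of the other end formed regions, as did the rest of the body and the flank to 5 kb. The 2 strands of a CpG counted as separate positions, so regions such as the Apoa4 and Apob starts and the Apoa2 flanks hold fewer CpGs than positions. Where no start was in the table, both ends were treated alike. All 10 genes are named. The called position with the largest range in each gene is given in full, and others where the samples of the lowest and highest strains did not overlap. Genes of the lipoprotein list are named where called, at most 5 by range, and Mttp, Apoc2, Lcat, Gpihbp1, Fgb, Rbp4, Plg and the cell markers were named after their values were seen. Members and lists were chosen with earlier results of these data known. Exon and intron annotation and strain genomes were not used here.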

Additional observations from a re-analysis of the deposited data

How the results depend on the processing

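Against 8 called positions, 5 were called with an offset of 1 in the log ratio, all among the 8. Untransformed percentages gave 12 and positions listed in all 27 samples 10, both holding the 8, while no filter on the mean gave 6 and centring on each sample's mean 7. With both strands of a CpG averaged, 5 of 77 were called, of which 3 were among the 8. The rest of the 8 were merged with the other strand of their CpG and no longer existed as single positions. This count thus cannot show whether they were kept. A flank of 2 kb gave 3 and no flank 3, and both drop the positions beside Apoa2 and Apom. Leaving out each of 27 samples in turn gave 5 to 10, the 5 arising without PWK/PhJ replicate 1, and leaving out all C57BL/6J samples gave 8, of which 6 were among the original calls. Over the whole data set 25142 positions were called with an offset of 1, against 37638. Of the 2 called regions, 1 remained with a minimum range of 25 points, 4 passed with no minimum range, and leaving out samples gave 2 to 3. With a minimum range of 25 points 1209 of all regions were called, and with none 8549, against 4149. The third region without 1 sample was Apob's start. With the replicate number as a block, 6 positions and 2 regions were called. On average the numbers showed no pairing of samples. Deviations from the strain mean correlated by 0.0009 on average over 76 pairs with the same number and by -0.0003 over 248 other pairs. Of 27 samples, 9 correlated best with their own number. An average over all positions cannot show a batch that acts on few of them. Mean levels moved with the positions that entered: in bodies to 20.2% with positions listed in all samples, 9.10% with windows of 500 bp and 87.9% with 2000 bp, near other ends to 85.1% with 500 bp and 17.4% with 2000 bp, and in flanks to 26.0% with 2000 bp. Near starts the level was 7.77% and 9.36% with these windows, and leaving out samples gave 7.64 to 7.96%. With windows of 500 bp no position remained near the ends of Apoc1 and Apoc3. The depth behind each percentage is unknown, which limits every single position.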
